A study of Mus musculus with 8 samples.

Results

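The protein-coding transcriptome of 4 libraries of mouse microglia, named WT in their titles and source names, was described gene by gene: in which order the genes stood by level, and how far each gene spread over the 4 libraries. Members were the genes typed as protein-coding in the deposited table with a mean signal above 0. They numbered 17331, out of 27486 genes with reads and 46983 genes in the table. The lowest mean signal of a member was 0.0995, shared by 31 genes, and the 4599 protein-coding genes outside the rule were listed at 0 in every library. The series holds 8 libraries, and the 4 named Qk-KO were not used here.

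Microglia were isolated from the corpus callosum, a large tract of myelinated axons, and their total RNA was sequenced. The mice were of a mixed FvB and C57BL6 background, were 8 weeks old when given tamoxifen, and then ate 0.2% cuprizone for 6 weeks. Cuprizone, which binds copper, kills the myelin-forming oligodendrocytes, so that axons lose their sheaths. All of the mice carried Cx3cr1-CreER, a tamoxifen-inducible recombinase driven by Cx3cr1, and at least 1 loxP-flanked allele of Qk, which encodes the RNA-binding protein quaking. WT in the labels thus means a mouse with 1 flanked and 1 normal Qk allele, not one without the transgene, and no library of untreated mice was used here. The driver is also active in other macrophages and in monocytes. The genotype field goes against the names: it calls named WT 1 and 4 WT and named WT 2 and 3 Qk-KO. Whether the libraries are of different animals is not in the labels, so the SDs and p-values given here rest on a spread that could be technical alone. Xist, the female-specific RNA that silences an X chromosome, had log2 values of 14.61, 14.74, 14.59 and 13.55 in named WT 1 to 4. Y-linked Ddx3y had 11.22, 11.08, 11.53 and 11.58, so RNA of both sexes was present in each library. Xist was lowest in named WT 4, where Ddx3y and Y-linked Kdm5d were highest. The Y-linked genes Eif2s3y and Uty were highest in named WT 3. Whether the mix of sexes differed between the libraries was not tested.

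Microglia are the resident macrophages of the brain. In the healthy brain they hold a set of surface receptors and transcription factors often called homeostatic. Around dying cells and stripped myelin they take up lipid-rich debris, digest it in lysosomes, return cholesterol by apolipoproteins, and express a further set of genes named disease-associated, which depends in part on the lipid receptor TREM2.

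About 59700000 to 69700000 reads per library were assigned to genes, so a gene at 10 CPM rested on 597 to 698 reads and carried a counting error of 3.79% to 4.09%. CPM is a gene's share of a library's summed signal, scaled so that all genes sum to 1000000, and TPM is the same share after division by exon length, which is the scale on which genes are compared with each other. Protein-coding genes held 89.6% to 90.7% of the signal. Over the 8128 members at 10 CPM or more, the 6 pairs of libraries had r across genes of 0.978 to 0.992, where genes are not independent replicates, and a median absolute difference of 0.07 to 0.10 on the log2 scale. Named WT 4 stood apart: its 3 pairs had the largest median differences, and 69 to 100 genes per pair differed by more than 1 on the log2 scale, against 30 to 35 in the other 3 pairs. Ranges of the lists and genes that rest on it are given with and without it.

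The label of microglia was met by the data. All 22 genes of a homeostatic microglia list were measured at 10 CPM or more, and 19 were among the 1000 highest members by TPM. Their median stood at percentile 98.8 of all members, for which it is 50 by construction. Csf1r, the receptor for the growth factors on which microglia depend, had log2 values of 18.46, 18.44, 18.49 and 18.52 in named WT 1 to 4. P2ry12, a purinergic receptor of resting processes, had 14.88, 14.82, 14.99 and 14.96. Tmem119, a membrane protein used to mark microglia, had 14.37, 14.35, 14.50 and 14.61. The level of these 3 genes was nearly even over the libraries, with SDs of 0.04 to 0.12. The list as a whole had a median SD of 0.12, against 0.08 for members at 10 CPM or more. Its means were 14.83, 14.80, 14.92 and 14.96. Of the 22 genes, 12 were highest in named WT 4, against 2010 of the 8128 members at 10 CPM or more. Cx3cr1 was one of them, with 16.81, 16.73, 16.71 and 17.32. Sall1, a transcription factor of microglial identity, ranked 606th at 197 TPM, and the lowest member of the list, Mef2c, a transcription factor, still ranked 2366th at 54.2 TPM.

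A small number of genes held much of the RNA. Counted per length, 12 of 17267 members with a known length held 25% of the summed level, 144 held 50% and 3702 held 90%. Per library the number that held 50% was 132 to 148. In all, 115 members reached 1000 TPM, 1215 reached 100, 7708 reached 10 and 11683 reached 1. The 4 libraries gave nearly the same curve in the plot of level by rank.

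**Figure D1:**
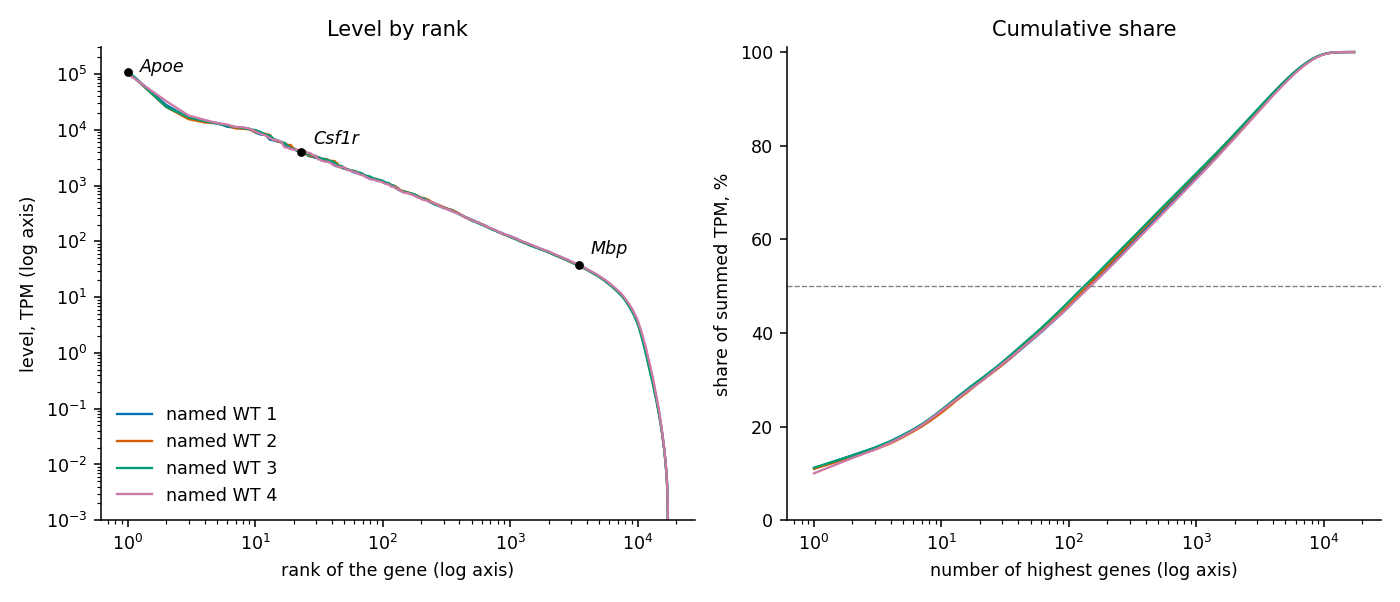
Left, level of each member in TPM against its rank, both on log axes, with 1 line per library named WT. Right, the share of summed TPM held by the highest genes, with a dashed line at 50%. Apoe stands alone at rank 1, Csf1r at rank 23 and Mbp at rank 3448, and the 4 lines nearly coincide.

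Apoe was first by a wide margin. It encodes apolipoprotein E, the carrier that takes cholesterol and phospholipids out of glia (ENSMUSG00000002985, chromosome 7, 19696109 to 19699188, minus strand, GRCm38). Its log2 values were 21.82, 21.84, 21.88 and 21.63, lowest in named WT 4, and it held 10.8% ± 0.544 of the summed TPM (SD, n = 4). The next gene, Ctsd, which encodes the lysosomal aspartic protease cathepsin D (ENSMUSG00000007891, chromosome 7, 142375911 to 142388038, minus strand), held 2.80%. Its log2 values of 19.96, 19.88, 19.90 and 20.14 had their highest in named WT 4. Together the 10 highest members held 23.5% of the level and the 100 highest held 45.8%.

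By role, the 25 highest genes fell into few groups. Lysosomal proteins made up 7 of them, among which were Ctsd at 27837 TPM, Ctss (cathepsin S, a protease also used to process antigen) at 16573 TPM, Psap (precursor of the saposins, cofactors of glycolipid breakdown) at 9058 TPM, and Ctsz, Lgmn and Ctsb, further proteases, at 3866 to 6057 TPM. The 3 chains of complement C1q, the molecule that tags synapses and debris, followed the order C1qa, C1qb and C1qc at 14168, 10093 and 6670 TPM. C1qa had log2 values of 17.78, 17.79, 17.87 and 17.85. C1qb had 17.48, 17.27, 17.45 and 17.39, lowest in named WT 2, and was above C1qc per length although C1qc had the higher value before division by length in all 4 libraries.

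Signalling and immune genes among the 25 were Csf1r, Tyrobp (the adaptor through which TREM2 signals), B2m (the light chain of MHC class I), Lyz2 (lysozyme), Spp1 (osteopontin), Junb (a transcription factor of the AP-1 family) and the chemokines Ccl3 and Ccl4. Tyrobp, on chromosome 7, had log2 values of 15.97, 15.94, 15.96 and 15.99 and an SD of 0.02. Ccl3 had 15.77, 15.71, 15.76 and 15.78, and Ccl4 had 15.26, 15.09, 15.20 and 15.12. These chemokines ranked 20th and 25th per length, but 83rd and 144th before division by length, since both transcripts are short. Cst3 (cystatin C, an inhibitor of cathepsins), Ftl1 (ferritin light chain), Eef1a1 (a translation elongation factor), Actb and Tmsb4x (actin and an actin-binding peptide) and the ribosomal protein gene Rplp1 completed the set.

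The order among neighbours could lie within the spread. Of the 25 highest members, 23 were among the 25 highest of every library, and 28 genes reached the 25 highest of any. The mean log2 level also hides a larger move. The mitochondrially encoded gene mt-Co1 had log2 values of 2.96, 18.00, 18.03 and 3.0. In named WT 2 and 3 it was above C1qc, ranked 13th, which had 17.55 and 17.69 there before division by length. Tyrobp and Ctsz, ranked 15th and 16th, had 6103 ± 262 and 6065 ± 363 TPM (arithmetic mean ± SD, n = 4), so they were not separated beyond their spread. Apoe at 108354 ± 5441 TPM and Ctsd at 27971 ± 3250 TPM were. The order also moved with the scale. Without division by length 18 of the 25 and 67 of the 100 highest genes were shared, and the median exon length of the 100 highest was 3172.5 bases in place of 1868. Csf1r then ranked 6th instead of 23rd.

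Genes of the disease-associated list, which names the lipid, lysosomal and phagocytic genes that microglia express around damage, were high. All 28 measured members were at 10 CPM or more, 27 were among the 1000 highest, and their median stood at percentile 99.3. Their share of the summed TPM was 18.7% ± 0.224, of which Apoe was the greater part. The mean log2 value of the list was 15.75, 15.73, 15.71 and 15.73 in named WT 1 to 4, a range of 0.03. Spp1 had 16.73, 16.73, 16.63 and 16.68. Itgax, the integrin chain CD11c, had 15.88, 16.00, 15.84 and 15.98, and Lpl, lipoprotein lipase, had 15.97, 15.98, 15.73 and 15.86. The lowest member was Igf1, a growth factor, at 63.0 TPM. Clec7a, a receptor for glucans often named with these genes, is typed as a polymorphic pseudogene in the table, so it was no member. Its log2 values were 14.83, 14.96, 14.97 and 14.56. Homeostatic and disease-associated genes were thus both near the top of these libraries, and bulk RNA does not say whether the same cells held both.

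General markers of macrophages stood at a median percentile of 99.5 (21 of 21 at 10 CPM or more). Spi1, which encodes the transcription factor PU.1, had log2 values of 13.15, 13.21, 13.22 and 13.11. PU.1 binds DNA at a core that can be written as GAGGAA. RefSeq promoter windows of GRCm38.p6, from 250 bases before to 50 bases after a transcription start, were found for 15 of the 21 genes, and 11 of these held the letters GAGGAA on either strand. Over all 12737 members with a window the share was 30.8%, and for the homeostatic list it was 9 of 17. The disease-associated list, with 8 of 23 (34.8%), and the 500 highest members, with 127 of 374 (34.0%), were near the share of all members. Windows with a match are shown for Ctss (chr3:95526536-95526835, plus strand), Laptm5, a lysosomal membrane protein (chr4:130913066-130913365, plus strand), and Cd68, a lysosomal glycoprotein (chr11:69666121-69666420, minus strand). They are shown because these genes were among the highest of the macrophage markers, with 1947 to 16573 TPM. Capitals mark each match, as TTCCTC where it lies on the other strand. A match is a description of the letters and not a binding site.
Ctss: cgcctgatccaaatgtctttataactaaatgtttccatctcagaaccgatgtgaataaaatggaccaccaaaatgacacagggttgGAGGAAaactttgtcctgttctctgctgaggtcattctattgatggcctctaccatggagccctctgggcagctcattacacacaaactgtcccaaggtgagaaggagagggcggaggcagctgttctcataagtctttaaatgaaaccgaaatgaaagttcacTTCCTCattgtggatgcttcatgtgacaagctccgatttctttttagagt
Laptm5: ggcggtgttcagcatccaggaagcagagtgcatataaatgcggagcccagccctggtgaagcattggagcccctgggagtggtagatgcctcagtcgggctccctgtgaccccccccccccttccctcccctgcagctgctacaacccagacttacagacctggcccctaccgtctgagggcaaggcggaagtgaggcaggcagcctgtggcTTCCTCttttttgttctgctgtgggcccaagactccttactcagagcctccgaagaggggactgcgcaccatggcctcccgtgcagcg
Cd68: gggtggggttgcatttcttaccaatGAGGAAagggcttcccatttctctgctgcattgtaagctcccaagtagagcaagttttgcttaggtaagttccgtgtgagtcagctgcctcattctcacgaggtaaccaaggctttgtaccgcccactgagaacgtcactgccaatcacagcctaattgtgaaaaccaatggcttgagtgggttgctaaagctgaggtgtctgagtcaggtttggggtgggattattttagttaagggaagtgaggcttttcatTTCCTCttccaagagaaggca

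Lysosomal proteases and hydrolases were 33 of 34 at 10 CPM or more, with a median percentile of 98.2 and 9.35% ± 0.652 of the summed TPM. Ctsk, cathepsin K, a protease of osteoclasts, was the exception at 0.313 TPM. For 23 of the 34 genes the highest value was in named WT 4. Of all 17331 members 5453 had theirs there, and of the 8128 at 10 CPM or more 2010 did. Lipa, the acid lipase that frees cholesterol from its esters, was the most variable, at 13.69, 13.72, 12.40 and 13.63, low only in named WT 3. The 23 genes of cholesterol and lipid handling had a median of 119.5 TPM. Abca1, the transporter that loads apolipoprotein E, was among the 3 highest of the list at 771 TPM. Abcg1, another transporter of cholesterol, which was chosen after its value was seen, had 337 TPM. Hmgcs1, an enzyme of cholesterol synthesis, had 28.2 TPM, and Sqle, the squalene epoxidase, was the lowest of the list at 1.03 TPM. Srebf2, the factor that induces synthesis, had 18.7 TPM. The median member had 6.86 TPM.

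MHC class I was led by B2m at 10922 TPM and H2-D1 at 2972 TPM. MHC class II was led by Cd74, the invariant chain, at 2561 TPM. Cd74 had log2 values of 15.84, 16.38, 15.94 and 16.01, highest in named WT 2. H2-Ab1 had 14.02, 14.57, 14.14 and 14.24, and H2-Eb1 had 13.28, 13.95, 13.41 and 13.49. In all, 6 of the 9 class II genes were highest in named WT 2, and 7 were lowest in named WT 1. Of the 8128 members at 10 CPM or more, 2035 and 1601 were. Ciita, the coactivator that switches these genes on, was lowest of the list at 4.87 TPM. H2 genes have near-identical copies, and reads shared among them make single values uncertain. Genes of the type I interferon response stood at a median percentile of 82.1, led by Ifi27l2a at 469.5 TPM, Bst2 (tetherin) at 374 TPM and Ifitm3 at 208 TPM. Of 26 measured, 22 were lowest in named WT 2, against 3744 of all 17331 members and 1641 of the 8128 at 10 CPM or more. Their mean was 10.84, 10.64, 11.06 and 10.99.

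**Figure D2:**
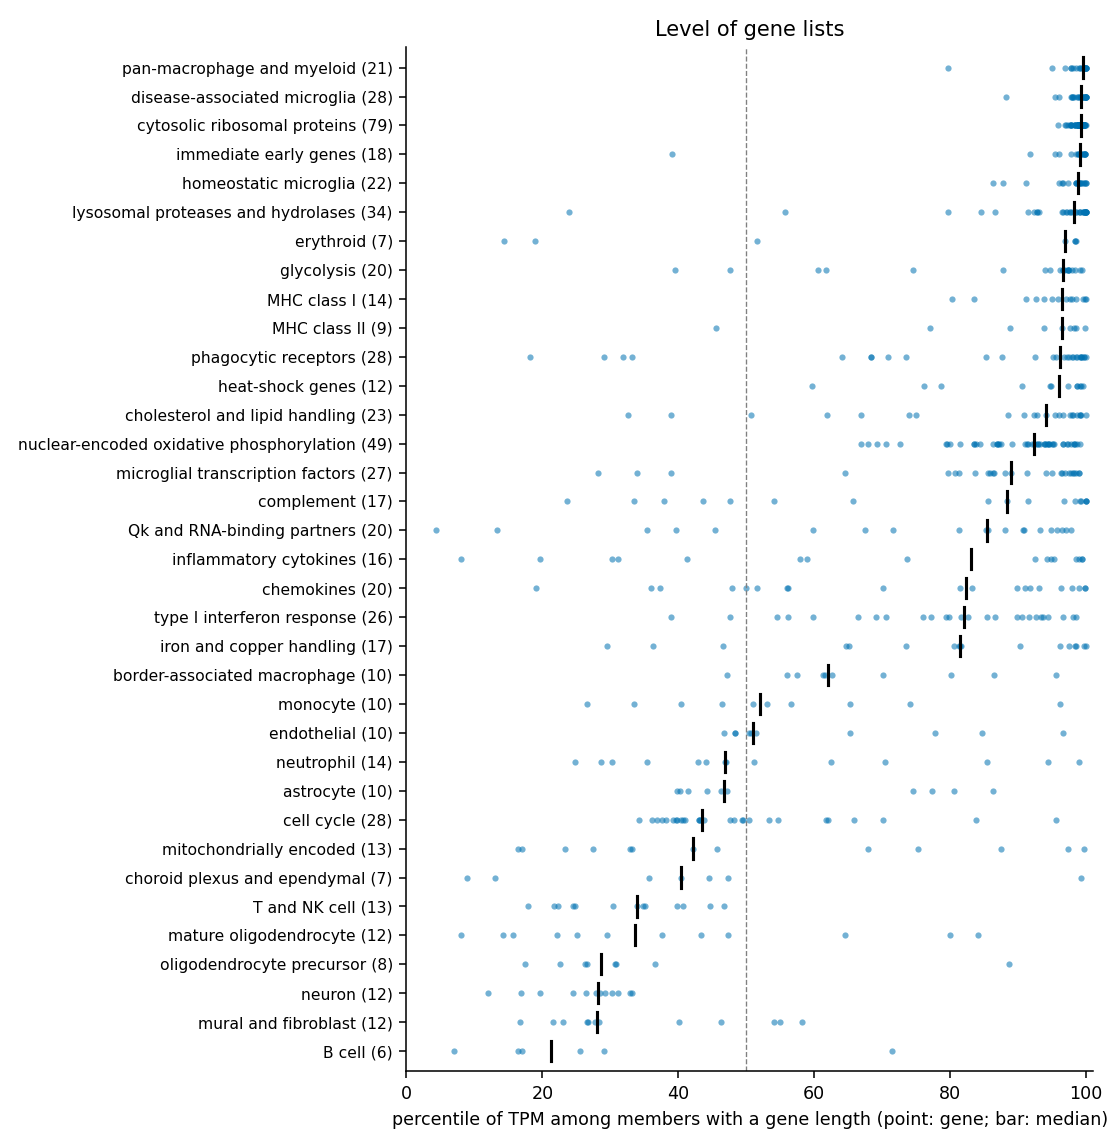
Level of each gene of 35 lists as a percentile of TPM among the members with a gene length, with the number of measured genes in parentheses. Points are genes, black bars are medians, and the dashed line is percentile 50. Macrophage, disease-associated, ribosomal and homeostatic lists have medians above 98, and the B cell, mural, neuron and oligodendrocyte precursor lists have medians under 29.

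Markers of other cell types were lower but not absent. Of 12 neuronal markers none reached 10 CPM, and the highest, Tubb3, a tubulin of neurons, had 1.12 TPM. Astrocyte markers had a median of 5.33 TPM, led by Gfap, their intermediate filament, at 54.2 TPM, and Slc1a3 and Slc1a2, glutamate transporters, at 38.1 and 32.2 TPM. Mature oligodendrocyte markers had a median of 1.37 TPM. Cnp and Mbp, both genes of myelin, led that list with 47.1 and 37.1 TPM, while Mog and Opalin were under 1 TPM. Ttr, transthyretin of the choroid plexus, was high for a marker of another tissue at 811 TPM, with log2 values of 14.44, 14.08, 13.90 and 13.11. Border-associated macrophage markers had a median of 14.5 TPM, of which Stab1, a scavenger receptor, had 158 TPM and Lyve1 5.53 TPM. None of the 13 T and NK cell markers reached 10 CPM, and their levels ran from Cd3e at 0.135 TPM to Gzma, a granzyme, at 5.37 TPM, with a median of 1.23 TPM. None of the 6 B cell markers among the members reached 10 CPM either, with a median of 0.254 TPM. Vpreb3 was lowest at 0.0209 TPM, and Cd79b, a chain of the B cell receptor complex, was highest at 23.7 TPM. The list was fixed with 8 genes, but Ighm and Igkc, constant regions of antibodies, are not typed as protein-coding and were no members. Both were above 10 CPM, with 169 CPM for Ighm and 11.6 CPM for Igkc. Haemoglobin genes of red cells reached 221 to 477 TPM. The copies of each globin chain are near-identical in sequence, so their single values are uncertain.

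These markers were spread unevenly over the libraries. In bulk RNA, fewer cells of a type and less RNA per cell cannot be told apart. All 10 astrocyte markers were highest in named WT 4, against 5453 of 17331 members, and their mean log2 value was 9.87, 9.18, 9.38 and 10.55. Gfap had 12.09, 10.94, 11.36 and 12.85, a range of 3.76-fold, or 2.23-fold without named WT 4, and the range of the list means was 1.37 on the log2 scale with that library and 0.69 without. Of 12 mature oligodendrocyte markers, 11 were highest in named WT 4, where their mean was 7.29 against 5.76 to 5.86 in the other 3. Mbp had 11.96, 11.99, 11.89 and 13.25, a range of 2.57-fold with named WT 4 and 1.08-fold without. Of the 12 neuronal markers, 8 were highest in the same library. Their mean was 5.03, 4.99, 4.99 and 5.67, a range of 0.68 with named WT 4 and 0.05 without. Kif5a, a kinesin motor of neurons that was in no list, was named for its high SD. It had 9.73, 9.18, 9.20 and 14.13, and so was 30.8-fold higher in named WT 4 than in named WT 2. The other 3 libraries lay within 1.46-fold. No listed neuronal marker reached 10 CPM, so Kif5a in named WT 4 stood far above them and does not measure their change.

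Neutrophil genes differed most of all lists, and in another library. Their mean log2 value was 7.35, 9.97, 6.89 and 5.71, a range of 4.25, or 3.07 without named WT 4. Of 14 genes 13 were highest in named WT 2 and 12 were lowest in named WT 4, against 4087 and 5121 of 17331 members. S100a9, a calcium-binding protein of neutrophils, had 9.99, 12.70, 9.77 and 7.51, a range of 36.6-fold, or 7.62-fold without named WT 4. Ngp, a protein of neutrophil granules, had 8.40, 11.66, 7.42 and 5.12. Mpo, myeloperoxidase of granules, had 3.08, 9.30, 2.74 and 1.86, and stood near the floor outside named WT 2. Csf3r, the receptor for the neutrophil growth factor G-CSF, was the exception, at 15.18, 15.13, 15.06 and 15.15, and ranked 185th at 633 TPM. Its SD of 0.05 was far below those of the other 13 genes of the list, which were 1.03 to 3.41. Monocyte markers had 8 of 10 genes highest in named WT 2, with Chil3 at 8.57, 10.29, 7.54 and 6.06, and all 7 erythroid genes were highest there too.

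Across members the spread was small. At 10 CPM or more the median SD over the 4 libraries was 0.08 on the log2 scale, which is 1.06-fold, and 124 of 8128 members (1.53%) had an SD over 0.5. The SD depended on the level. Its median was 0.12 under 0.1 CPM, 0.34 between 0.1 and 1 CPM and 0.20 between 1 and 10 CPM. Between 10 and 100 CPM it was 0.08, and above that 0.07. Below 1 CPM the deposited values are drawn towards the mean of the gene, so a small SD there does not mean a steady gene. The steadiest genes at 10 CPM or more were Ipo11, an importin, with an SD of 0.0041, and Gas6, the bridging ligand of the receptors AXL and MERTK, with 0.0045. Gas6 had 13.77, 13.78, 13.77 and 13.77. Among the 25 highest, Actb was the steadiest, at 18.38, 18.40, 18.38 and 18.39. Nuclear-encoded genes of oxidative phosphorylation had list means within 0.02 of each other.

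**Figure D3:**
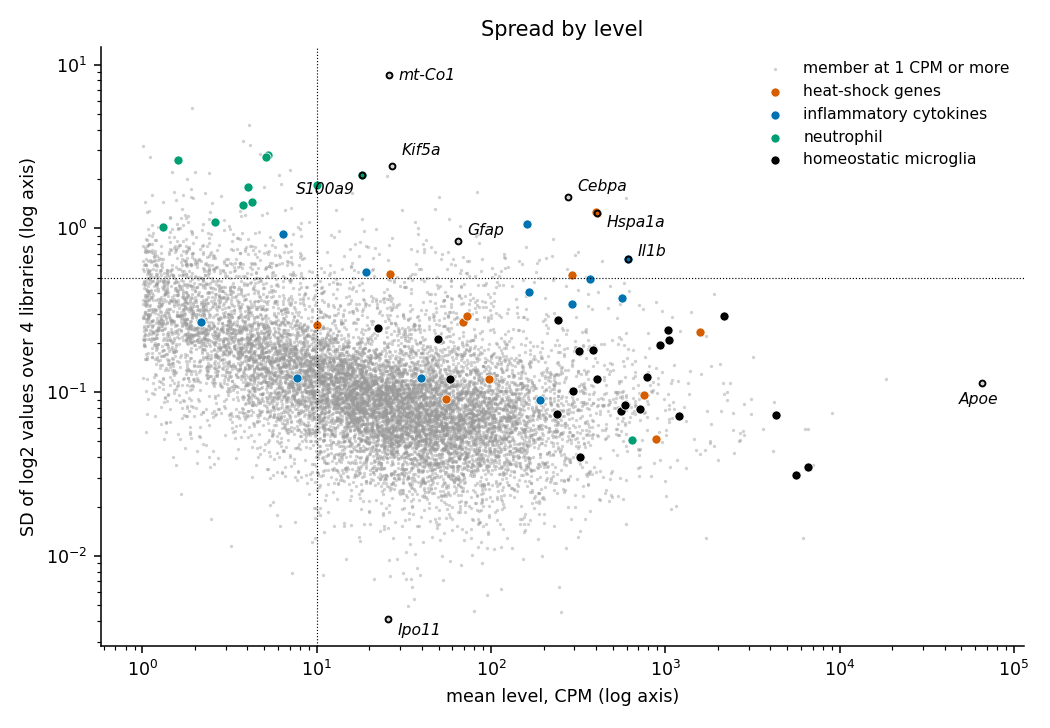
SD of the log2 values over 4 libraries against mean level in CPM for members at 1 CPM or more, both on log axes. Colours mark 4 gene lists, dotted lines mark 10 CPM and an SD of 0.5, and 9 genes are named. Homeostatic genes lie under the line at 0.5, whereas heat-shock, cytokine and neutrophil genes reach above it.

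Named WT 4 was the library farthest from the mean of the 4 for 80 of the 124 variable members (64.5%), 56 times as the lower and 24 times as the higher one, and for 3262 of all 8128 members (40.1%). Without it, 72 members had an SD over 0.5. The lower values in named WT 4 included stress and inflammatory genes. Of all 8128 members at 10 CPM or more, 3156 were lowest in named WT 4 and 2035 were highest in named WT 2. Of 12 heat-shock genes, which encode chaperones, 11 were lowest in named WT 4 and 9 were highest in named WT 2. The list means were 13.13, 13.49, 13.36 and 12.60, a range of 0.89 with named WT 4 and 0.36 without. Hspa1a and Hspa1b, the inducible forms of HSP70, led the spread. Hspa1a (ENSMUSG00000091971, chromosome 17, 34969190 to 34972156, minus strand) had 14.40, 15.54, 15.14 and 12.75, a range of 6.96-fold, or 2.21-fold without named WT 4. Hspa1b (ENSMUSG00000090877, chromosome 17, 34956436 to 34959238, minus strand) had 14.34, 15.57, 15.13 and 12.71. Hspa8, the constitutive form, had 16.52, 16.55, 16.57 and 16.08, and Hspa5, the chaperone of the endoplasmic reticulum, 15.60, 15.60, 15.63 and 15.51.

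The promoters of both inducible genes are shown because these genes moved together over the 4 libraries. The heat-shock element, searched as GAANNTTC, which reads the same on both strands, was found in 7 of the 9 heat-shock genes with a RefSeq window (GRCm38.p6) and in 7.57% of the 12737 members with one. The windows of Hspa1a (chr17:34972107-34972406, minus strand) and Hspa1b (chr17:34959189-34959488, minus strand) were identical in 296 of 300 aligned bases, and each held the element once, 104 bases before the start, in capitals. Copies this alike extend the doubt to the counts: reads of the 2 genes may be split between them.
Hspa1a: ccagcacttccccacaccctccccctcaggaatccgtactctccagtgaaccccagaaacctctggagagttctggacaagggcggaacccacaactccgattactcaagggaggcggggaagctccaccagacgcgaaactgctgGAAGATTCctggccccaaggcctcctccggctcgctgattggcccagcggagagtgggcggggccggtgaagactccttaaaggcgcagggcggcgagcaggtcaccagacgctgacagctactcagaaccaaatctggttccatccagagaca
Hspa1b: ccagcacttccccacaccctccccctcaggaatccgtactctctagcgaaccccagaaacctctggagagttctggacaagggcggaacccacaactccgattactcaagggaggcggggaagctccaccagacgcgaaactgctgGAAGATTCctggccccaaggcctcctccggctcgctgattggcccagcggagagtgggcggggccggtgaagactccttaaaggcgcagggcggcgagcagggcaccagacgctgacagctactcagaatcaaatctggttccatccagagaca

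Inflammatory cytokine genes covered a wide range of levels: 9 of 16 reached 10 CPM, and the median was 60.3 TPM, percentile 83.1. Tnf at 1211 TPM, Il1b at 1127 TPM and Il1a at 663 TPM were the highest, and Il12a was lowest at 0.0252 TPM. Of 16 genes, 13 were lowest in named WT 4, against 5121 of all 17331 members. The list means were 9.93, 10.02, 9.85 and 9.21, a range of 0.81 with named WT 4 and 0.17 without. Il1b had 15.27, 15.48, 15.34 and 14.08. Ptgs2, the inducible cyclooxygenase, had 13.62, 13.70, 13.62 and 11.53, and was even over the other 3 libraries. Immediate early genes, which are switched on within minutes of a stimulus, stood at a median percentile of 99.1, led by Junb at 4886 TPM, Zfp36, which destabilizes cytokine transcripts, at 2734 TPM and Atf3 at 2664 TPM. Of 18, 13 were lowest in named WT 4, against 3156 of the 8128 members at 10 CPM or more. The range of the list means was 0.42 with that library and 0.16 without. Nr4a1, an orphan nuclear receptor, had 14.25, 14.52, 14.57 and 13.05. Egr1, a zinc-finger factor, went the other way with 14.81, 14.97, 14.87 and 15.17. The chemokines Ccl3 and Ccl4 were even over the libraries, whereas Cxcl2, which attracts neutrophils, had 11.90, 12.10, 11.69 and 11.07. Beside these lists the glial and neuronal markers of named WT 4 were the highest of the 4 and its neutrophil markers the lowest, and their part in the stress and cytokine values was not tested.

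The 79 cytosolic ribosomal protein genes were all among the 1000 highest members and held 8.62% ± 0.322 of the summed TPM. They were lowest in named WT 4 for 75 of 79, against 3156 of the 8128 members at 10 CPM or more. The margin was small: the list means were 14.57, 14.66, 14.65 and 14.46, a range of 0.20 with named WT 4 and 0.09 without. Many have processed copies elsewhere in the genome, and reads shared with those are uncertain. Cell cycle genes had a median of 4.01 TPM, below the median member, led by Pcna, the replication clamp, at 155 TPM. Top2a, a topoisomerase of dividing cells, had 9.89, 9.85, 9.36 and 10.37. In all, 19 of 28 cell cycle genes were highest in named WT 4, against 5453 of all 17331 members. The range of their list means was 0.49 with that library and 0.22 without. Microglial transcription factors stood at a median percentile of 89.0. Cebpa, a transcription factor of myeloid cells that overlaps an antisense gene, had 14.58, 14.62, 11.58 and 14.83. It was 9.47-fold lower in named WT 3 than in named WT 4, while Spi1, Irf8 and Runx1 had SDs of 0.05 to 0.08.

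**Figure D4:**
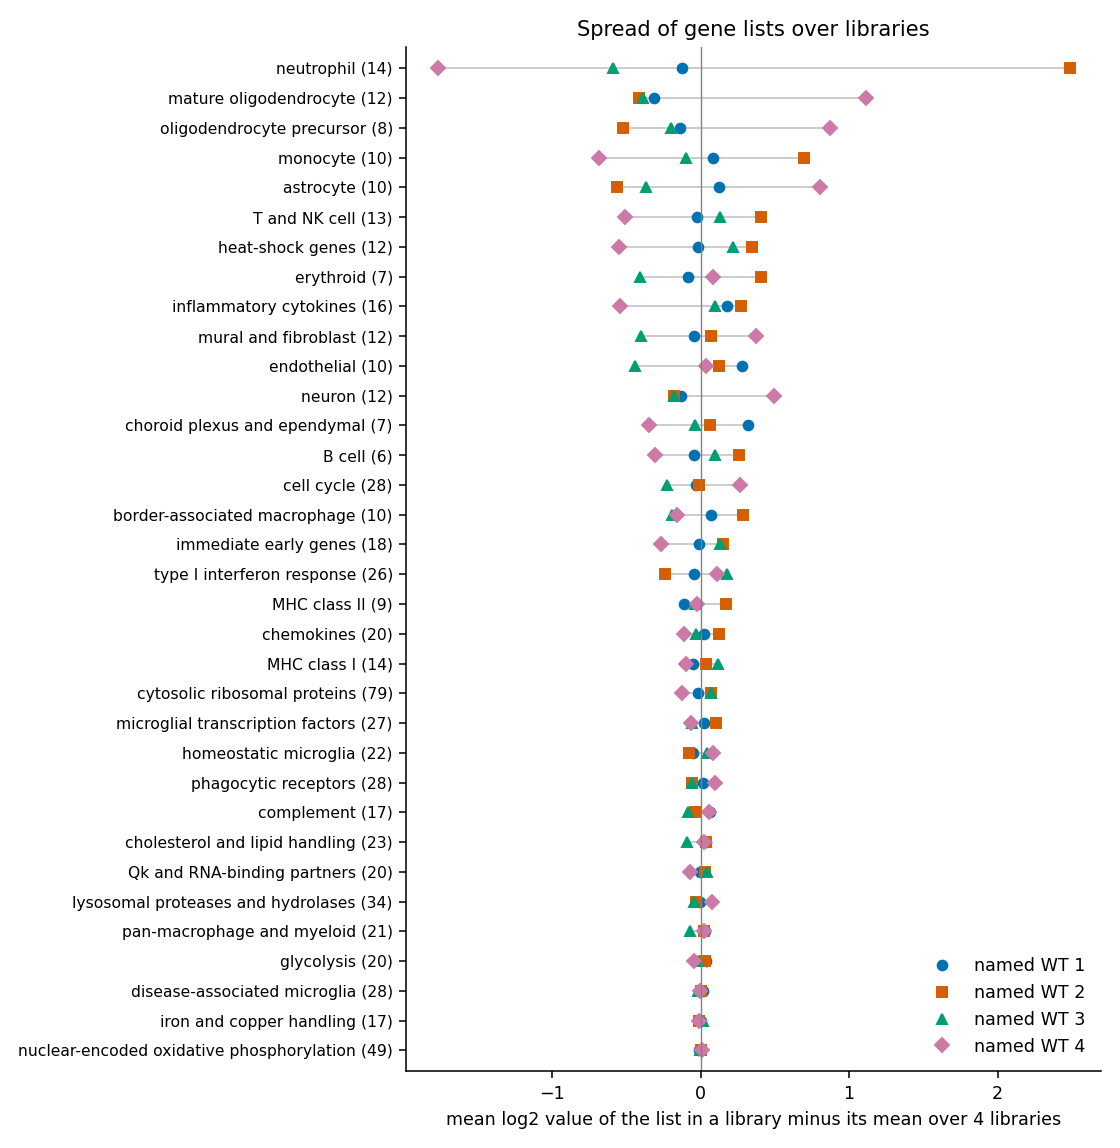
Mean log2 value of each list in each library minus its mean over the 4 libraries, with the number of measured genes in parentheses and the lists ordered by range. Neutrophil genes have the widest range, with list means of 5.71 in named WT 4 and 9.97 in named WT 2, and oligodendrocyte, precursor and astrocyte genes are highest in named WT 4. Mitochondrially encoded genes are left out here.

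Some of the largest spreads came as steps rather than degrees. In 18 members the lowest library was under a log2 value of 4 and the highest more than 5 above it. Of these, 12 share exonic bases with another annotated gene and 7 are encoded by the mitochondrial genome. mt-Co1, a subunit of cytochrome oxidase, had log2 values of 2.96, 18.00, 18.03 and 3.0. mt-Nd3, a subunit of complex I, had the opposite order, 11.13, 1.92, 2.24 and 11.71. mt-Atp6 was high only in named WT 3, at 14.17 against 2.86 to 2.95. mt-Cytb, by contrast, had 14.91, 14.96, 14.93 and 15.09. Mitochondrial genes are transcribed together as long precursors, and mitochondrial sequence has copies in the nuclear genome, among which reads can be split. The levels of these 13 genes are uncertain. Whether reads were split in this way, and which step of the counting moved with these genes, was not tested.

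Some variable members overlap another gene. Of the 124 variable members, 44 (35.5%) share exonic bases with another gene with reads, close to the 33.2% of all 8128, but of the 20 with an SD over 1 there were 12 (60%). Gm28048 had 11.53, 7.33, 11.60 and 11.42, and its neighbour B3gnt2, a glycosyltransferase with which it shares 2449 exonic bases, had 9.43, 11.67, 9.59 and 9.24. Their sum had an SD of 0.09, whereas the genes had 2.09 and 1.14. Lrch4 and Gm20605, which share 3029 bases, had SDs of 1.03 and 0.90 and a sum with an SD of 0.03. The sum is the steadier quantity for these 4 members, and the single values are uncertain. Few of the 44 were like this: 9 had a sum with an SD under 0.1, and only these 4 of the 9 also had an SD over 0.5 in the partner. For Cebpa and its antisense gene the sum had an SD of 1.51 against 1.55 for Cebpa alone, and for Kctd12, a protein that binds the GABA-B receptor, the sum with the lincRNA Gm26778 on the other strand had 1.53, like Kctd12 itself.

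**Figure D5:**
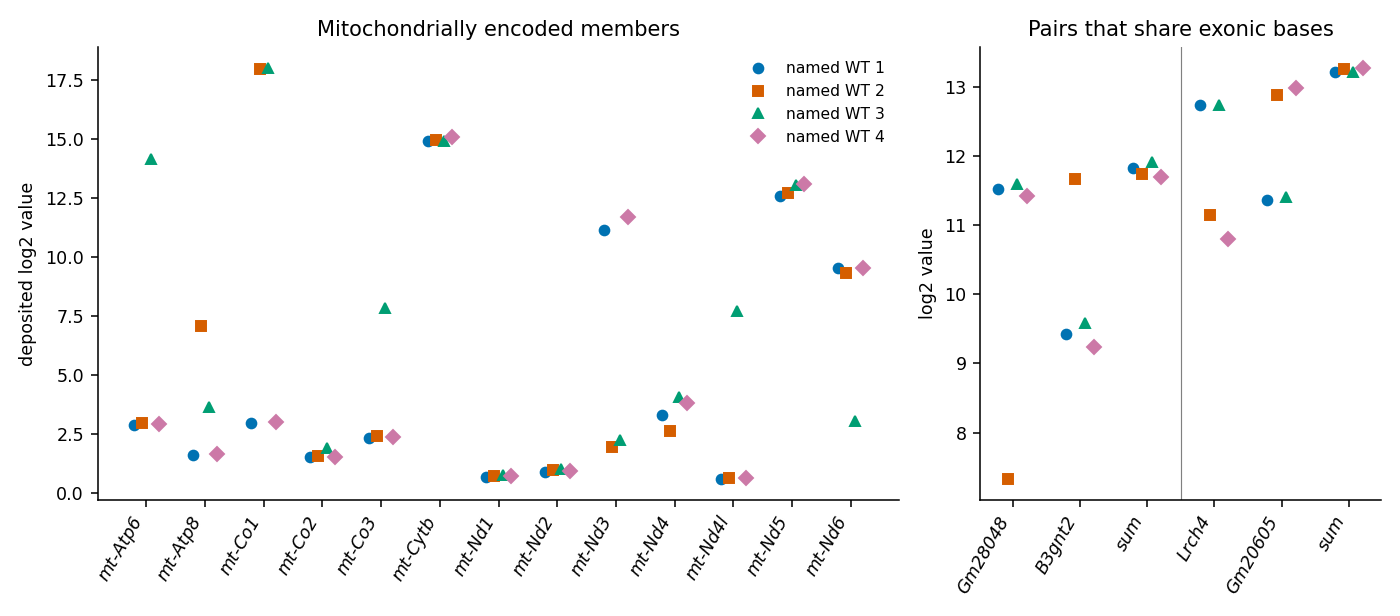
Left, deposited log2 values of the 13 mitochondrially encoded members in each library. Right, log2 values of 2 pairs of genes that share exonic bases, and of the sum of each pair. mt-Co1 lies near 18 in named WT 2 and 3 and near 3 in the others, and both sums are nearly even while their parts are not.

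Because the labels give these libraries 2 genotypes, named WT 2 and 3 (genotype field Qk-KO) were compared with named WT 1 and 4 (genotype field WT). Qk itself (ENSMUSG00000062078, chromosome 17, 10202601 to 10319854, minus strand, GRCm38) had log2 values of 15.50, 15.38, 15.41 and 15.37 and ranked 612th at 195 TPM. The difference was -0.03 (SE 0.08, 95% interval -0.22 to 0.15, limma adjusted p = 0.954), and the values of the 2 sides overlapped. Gene totals do not show whether a loxP-flanked part was missing. In limma with Benjamini-Hochberg adjustment, 6 members of 11899 tested were called, and over all 13560 genes tested 7 were, a background of 0.0516%. At an unadjusted p under 0.05 there were 628 members (5.28%), beside 699 of all genes tested (5.15%). The called members that were higher in named WT 2 and 3 were mt-Co1 and Max, the partner of MYC, which had 9.85, 11.24, 11.37 and 9.76, a difference of 1.5 (SE 0.08, limma adjusted p = 0.00452). Those lower were mt-Nd3, Purb, Rnf185 and Acer3. Purb, a DNA- and RNA-binding protein, had 9.23, 1.65, 1.74 and 9.98. Rnf185, a ubiquitin ligase, had 10.45, 8.82, 8.61 and 10.30, and Acer3, a ceramidase, had 12.19, 11.11, 11.22 and 12.37. mt-Co1, mt-Nd3 and Purb have the step pattern described above. The called gene outside the protein-coding rule, the pseudogene AC153941.1, had 2.08, 14.46, 14.42 and 2.12, high in the same libraries as mt-Co1. Other mitochondrial values of the 4 libraries follow different pairings, mt-Atp6 in named WT 3 alone among them. With 2 libraries a side, each left-out library moved the count, from 11 without named WT 3 to 371 without named WT 1.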

How the data were processed

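Total RNA of 4 libraries of microglia named WT was used. Per the submitters' processing notes the tools were HISAT2, StringTie, DESeq2 and FastQC, and the genome build was mm10. Their versions, what each did and the annotation used are not given in the sources. The library values deposited by the authors are on a log2 scale and behave like regularized log2 values, drawn towards a gene's mean over all 8 libraries where reads are few. The authors' deposited mean signal, named baseMean per the file headers, averages the depth-scaled signal of 8 libraries. No counts were in the table used here, so no count test was run and limma was used on the deposited log2 values without a pseudocount.

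CPM was taken as the linear value divided by the sum over all genes with reads. TPM used exon unions of GENCODE M21 (GRCm38), matched by identifier for 17267 of 17331 members, and the mean level was taken on the log2 scale. Where a symbol stood for more than 1 gene, as for Itgam, the gene with the higher mean signal was used. Depth was read from 336 to 450 genes per library with reads in that library alone, whose mean signal was a whole multiple of 1 read within 1% in 100% of cases. SD is over the 4 libraries, and SDs are described at 10 CPM or more, with 0.5 as the mark of a variable gene. Limma 3.58.1 in R 4.3.3, with trend and robust estimation, was fitted on genes at 1 CPM or more in at least 2 of the 4 libraries, with calls at a Benjamini-Hochberg adjusted p under 0.05, and its script was tested on simulated data. Overlaps of exons were taken on either strand, since the strandedness of the counts is not stated.

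Named genes were the 25 highest, the 15 most and 10 least variable at 10 CPM or more, 3 highest, the lowest and the most variable of each list, Qk, and called genes. Other genes given with values were chosen after their values were seen, and some genes that the rule names are not reported here. The members and the 35 lists were chosen with earlier results of these data known. Alternatives were another length scaling, averaging and normalization, other level minimums, other limma settings and each library left out. Sums over overlapping pairs and a histone list were added after seeing the data.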

Additional observations from a re-analysis of the deposited data

Results flagged for a closer look

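Of 225 values looked at, for 188 named genes, 36 lists and the share of Apoe, 28 had 1 library whose gap to the nearest of the other 3, divided by the range of the 4, was above Dixon's critical value for 4 samples. Chance flags about 1 in 20 such groups. The named genes include the most variable members and the most variable gene of each list. The 28 therefore cannot be set against that rate. No explanation was weighed.

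Named WT 4 was the library apart for 14 of the 23 genes. It was low for Eef1a1 (log2 value 18.84), Zfp36 (17.10), Hspa8 (16.08), Il1b (14.08), Il1a (13.59), Slc2a1 (13.03), Ptgs2 (11.53), Vegfa (9.94), Tnfsf9 (9.13) and Gdf15 (8.79). It was high for Cx3cr1 (17.32), Kif5a (14.13), Mbp (13.25) and Tubb3 (5.79). Cx3cr1 encodes the fractalkine receptor and drives the recombinase in these mice, and its other libraries had 16.81, 16.73 and 16.71. The list means of mature oligodendrocyte (7.29), neuron (5.67) and histone genes (9.65) were high in the same library.

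Named WT 3 was low for Kctd12 (12.73), Lipa (12.40), Cebpa (11.58) and Gm10116 (9.69) and high for Rpl41 (15.09), and the means of the pan-macrophage list (15.38) and the lipid handling list (13.18) were low there. Both lists hold 1 of these genes, Cebpa in the first and Lipa in the second. Named WT 2 was low for Atp5g3 (10.48) and Gm28048 (7.33) and high for Mpo (9.30). Named WT 1 was low for Arhgap19 (9.41), whose other libraries had 12.05, 12.08 and 11.98.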

How the results depend on the processing

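With each library left out in turn, 143 to 146 genes held 50% of the summed level, 24 to 25 of the 25 highest genes remained, the Apoe share was 10.8% to 11.2%, and 23 to 25 of the 35 lists had a median above percentile 50, where all 4 libraries gave 144, 25, 10.9% (from mean log2 levels) and 24. The number of members with an SD over 0.5 was 72 to 159, lowest without named WT 4, and 7 to 14 of the 15 highest SDs remained. Calls between the genotype fields numbered 11 to 371, where the side left with 1 library is assumed to vary like the other, and the Qk difference was -0.10 to 0.03, positive (0.0322, limma adjusted p = 0.84) only without named WT 1. Without division by length, 474 genes held 50% and the Apoe share was 7.28%. With the authors' mean over 8 libraries it was 11.7%. A minimum of 1 CPM gave 550 members with an SD over 0.5, sharing 2 of the 15 highest SDs, and a minimum of 50 CPM gave 57, sharing 7, as more or fewer low genes enter. Without a filter 2 genes were called between the genotype fields, and without trend and robust estimation 5 were. Of 217 further values, 187 were counted as unmoved. For list medians the mark was the SD over the 4 libraries. Leaving out 1 of the same 4 can hardly move a median beyond it, so the count says little about stability. For counts of called members the mark was 1.5 times. Without division by length most list medians moved beyond the SD. Chemokines went from percentile 82.3 to 56.3, erythroid genes from 96.9 to 78.1 and oxidative phosphorylation genes from 92.3 to 77.5. The remaining alternatives left the counts within 1.5 times. Depth limits what is said under 10 CPM, where values are shrunken. No paired analysis was possible because the groups compared, named WT 1 and 4 against 2 and 3, share no replicate number.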

Other observations

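Genes outside the protein-coding rule held 9.31% to 10.4% of the signal of the 4 libraries. Rn7sk, the 7SK RNA that holds back the elongation factor P-TEFb, was the highest, with log2 values of 20.68, 20.76, 20.90 and 20.59. The RNA components of the ribonucleases P and MRP, Rpph1 and Rmrp, had means of 18.09 and 17.46. Such transcripts are short and lack poly(A) tails. Neat1, the scaffold of paraspeckles, had 14.21, 14.03, 14.13 and 15.67, high in named WT 4, and Malat1, another nuclear RNA, had 14.04, 13.89, 13.98 and 14.41. Igkc, the kappa chain constant region of antibodies, had 9.69, 10.58, 9.84 and 7.20, with its highest value in named WT 2 and its lowest in named WT 4.

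Replication-type histone genes, a list taken by name after the values were seen, stood at a median percentile of 89.2. Of 68, 59 were highest in named WT 4, against 5453 of 17331 members, and their mean was 9.19, 9.22, 9.27 and 9.65. Hist1h1c, a linker histone, had 14.14, 14.03, 14.23 and 14.78. Most transcripts of these histone genes lack poly(A) tails, and histone copies are near-identical, so single values are uncertain.

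In the promoter windows of the 25 highest genes, the letters TATAAA on either strand were found in 7 of 17 with a window, against 10.1% of 12737 members, and in 59 of the 374 windows of the 500 highest. Growth hormone, Gh, had log2 values of 2.56, 7.16, 1.82 and 1.26, and Prg2, a protein of eosinophil granules, had 5.67, 8.97, 4.68 and 3.27, both highest in named WT 2.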
